A study of Rattus norvegicus with 12 samples.

Results

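Gastric mucosa of rats labelled with both a carcinogen exposure and a 60-day XLHZ treatment was compared with mucosa of untreated rats. The aim was to describe which microRNAs (miRNAs) differed from normal. All 4 XLHZ libraries and all 4 normal libraries of the series were used, 8 of its 12 small RNA libraries. They were chosen by their labels and not by any measured value. Normal rats are labelled as having had no treatment. XLHZ rats received MNNG (N-methyl-N'-nitro-N-nitrosoguanidine, which alkylates DNA and is used to induce gastric lesions) for 24 weeks, and XLHZ for 60 days. The labels give XLHZ by its letters alone, and neither its dose nor whether the 60 days fell within or after the 24 weeks. Per the labels' protocols, MNNG was in the drinking water at 180 µg/ml and was combined with 2% sodium salicylate by gavage at 1 ml per 100 g and with cycles of 2 days of feeding and 1 day of fasting. This scheme is meant to induce chronic atrophic gastritis, in which gastric glands are lost. The other 4 libraries, called the model group, had the same exposure without XLHZ and appear below only beside the XLHZ values. The labels do not tie each library to its own rat, and a p-value here therefore covers only the spread among these libraries, part of which may be technical. Every library was of bulk mucosa, in which fewer cells of a type and less RNA per cell cannot be told apart.

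A miRNA gene is transcribed into a hairpin, and cutting the hairpin gives a 5p arm and a 3p arm. Usually the arm loaded into an Argonaute protein accumulates and its partner, the passenger arm, is degraded. The loaded miRNA pairs with messenger RNAs mostly through its seed, bases 2 to 8 from its 5′ end, and lowers their stability and translation. In the stomach, the miR-200 family marks epithelium, miR-375 is high in gastric and endocrine epithelium, and miR-143 and miR-145 come mainly from smooth muscle and other mesenchymal cells.

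Of 648 miRNAs counted, 401 had enough counts to be tested, and 6 differed between XLHZ and normal mucosa at an adjusted p under 0.05. Higher in XLHZ were miR-20a-3p, miR-551b-3p, miR-344a-3p and miR-144-5p, 0.998% of the miRNAs tested. Lower were miR-34b-3p and miR-34c-3p, 0.499% of those tested, and both directions together made 1.5%. Their mature sequences from RefSeq (assembly GRCr8) are given here because the results turn on which arm and which seed each one is. Capitals mark the seed, and each sequence runs 5′ to 3′.
miR-20a-3p: aCUGCAUUacgagcacuuaca
miR-551b-3p: gGCGACCCauacuugguuucagu
miR-144-5p: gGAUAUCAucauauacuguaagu
miR-34b-3p: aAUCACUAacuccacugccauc
miR-34c-3p: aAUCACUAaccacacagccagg
The opposite arms of these hairpins carry other seeds, and those of miR-34b and miR-34c are shown with those of miR-20a and miR-144 because their levels are set against the arms above.
miR-20a-5p: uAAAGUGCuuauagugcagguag
miR-144-3p: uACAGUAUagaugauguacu
miR-34b-5p: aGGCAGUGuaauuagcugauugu
miR-34c-5p: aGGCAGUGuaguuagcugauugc
The table of mature sequences has no entry for miR-344a-3p.

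RefSeq places miR-20a-3p at chr15:98588354-98588374 on the plus strand and miR-144-5p at chr10:63459409-63459431 on the plus strand. The miR-551b-3p sequence lies at chr2:115917713-115917735 on the minus strand, inside the span of the protein-coding gene Egfem1. Both miR-34b-3p, at chr8:60306621-60306642, and miR-34c-3p, at chr8:60306101-60306122, lie on the minus strand inside the span of the protein-coding gene Hoatz. Only 465 bases separate the nearest mature arms of the miR-34b and miR-34c hairpins. The 3p arms of miR-34b and miR-34c share 17 of 22 positions and differ at none in the seed.

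Passenger arm miR-20a-3p had the smallest p. Its hairpin belongs to the miR-17-92 cluster, which Myc activates and which favours cell division. The normal libraries 1 to 4 held 6, 7, 9 and 6 counts of miR-20a-3p, and the XLHZ libraries 1 to 4 held 296, 198, 231 and 319. Every XLHZ library was above every normal library, and the XLHZ libraries lay close together. In counts scaled to library size by TMM (CPM), the level was 0.632 ± 0.133 in normal and 24.0 ± 4.11 in XLHZ mucosa (SD, n = 4 each). That is 36.8-fold higher, with a 95% interval of 25.4 to 53.2 (log2 fold change 5.20, SE 0.24, edgeR quasi-likelihood test, adjusted p = 1.24e-06). Its partner arm miR-20a-5p is the main product of the hairpin and targets cell cycle inhibitors. Its level was 1641 ± 170.1 CPM in normal and 1631 ± 221.3 CPM in XLHZ mucosa (SD, n = 4 each), with a log2 fold change of -0.03 and a 95% interval of -0.32 to 0.25.

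Another miRNA bears on the miR-20a-3p value. The 3p arm of miR-20b, from a paralogous cluster on the X chromosome, was left out of the fit because the authors' deposited tables give different counts for it in the same model libraries.
miR-20b-3p: aCUGCAGUgugagcacuucugg
Its sequence matches miR-20a-3p at 15 of 21 positions and differs once in the seed, as U7G with the miR-20a-3p base first. In the table that holds the XLHZ libraries, miR-20b-3p had 298, 195, 246 and 336 counts in XLHZ libraries 1 to 4. Those are close to the counts of miR-20a-3p in the same libraries, and over the 8 libraries of that table the ratio of miR-20b-3p to miR-20a-3p was 0.729 to 1.06. In the table that holds the normal libraries, miR-20b-3p had 3, 3, 7 and 5 counts in normal libraries 1 to 4. The same table gives the model libraries 5, 2, 0 and 0 counts of miR-20b-3p, where the other table gives 251, 152, 1003 and 254. For miR-20a-3p, both tables give model libraries 1 to 4 the same counts, 284, 166, 1375 and 264. How reads were divided between these 2 miRNAs in the deposited tables was not tested. The size of the miR-20a-3p difference is uncertain to that extent.

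The next miRNA by p was miR-551b-3p. Normal libraries 1 to 4 held 15, 6, 9 and 4 counts of miR-551b-3p, against 241, 174, 226 and 193 in XLHZ libraries 1 to 4. No XLHZ library came near the normal range. The level was 0.798 ± 0.524 CPM in normal and 19.4 ± 3.60 CPM in XLHZ mucosa (SD, n = 4 each). The difference was 24-fold, with a 95% interval of 13.4 to 43.1 (log2 fold change 4.59, SE 0.37, edgeR, adjusted p = 0.000108). With all 12 libraries in 1 fit, which takes in the spread of the model group, it did not pass (edgeR, adjusted p = 0.161). Its 5p arm has no row in the tables. A smaller rise was found for miR-344a-3p, with 92, 55, 81 and 53 counts in normal libraries 1 to 4 and 191, 237, 223 and 179 in XLHZ libraries 1 to 4. Here too the groups did not overlap. The level was 6.45 ± 2.32 CPM in normal and 19.3 ± 3.63 CPM in XLHZ mucosa (SD, n = 4 each), 2.94-fold higher with a 95% interval of 1.98 to 4.39 (log2 fold change 1.56, SE 0.25, edgeR, adjusted p = 0.0136). This call ended without normal library 2 (edgeR, adjusted p = 0.0578) or without XLHZ library 3 (edgeR, adjusted p = 0.0655), and with all 12 libraries in 1 fit (edgeR, adjusted p = 0.891).

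**Figure D1:**
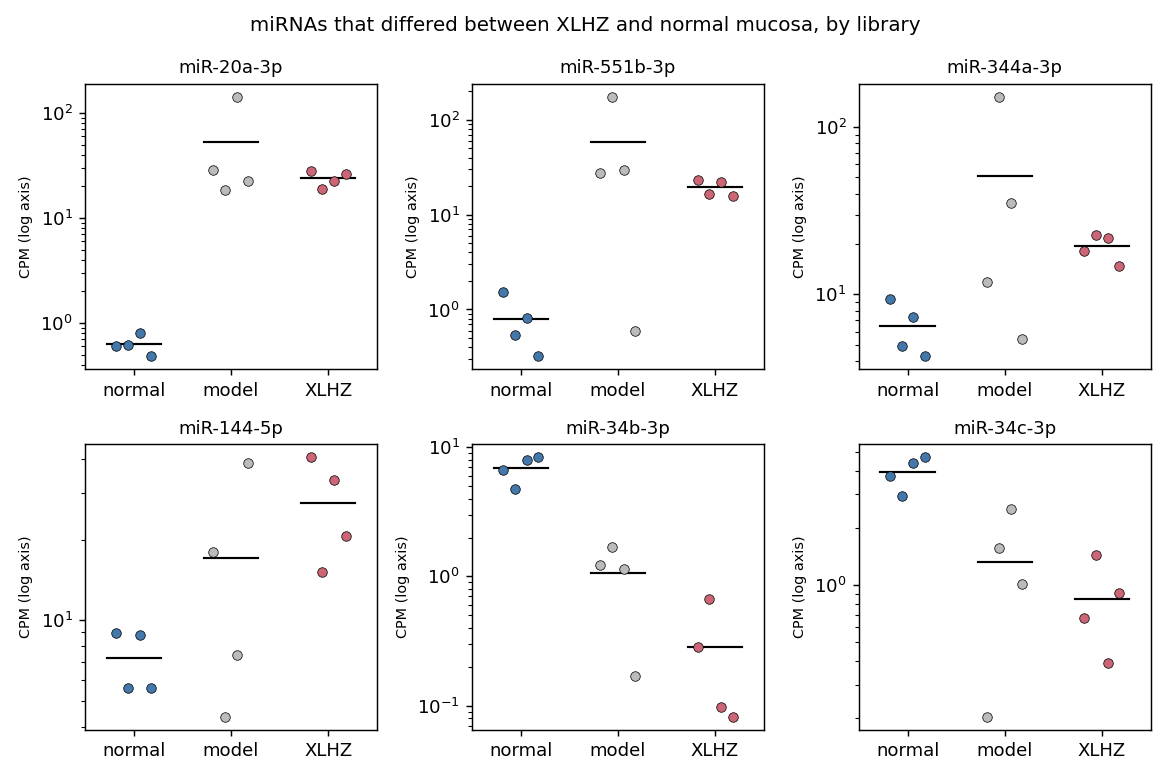
Level of the 6 miRNAs that passed, in CPM on a log axis, in the 4 normal (blue), 4 model (grey) and 4 XLHZ (red) libraries. Each point is 1 library and each bar a group mean. The XLHZ points of miR-20a-3p, miR-551b-3p, miR-344a-3p and miR-144-5p lie above all normal points and those of miR-34b-3p and miR-34c-3p below them, while the model points of miR-551b-3p, miR-344a-3p and miR-144-5p spread over the range of both groups.

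Both miRNAs that were lower in XLHZ mucosa are 3p arms of the miR-34b/c hairpins. These hairpins are made from 1 transcript that p53 activates, and the family restrains the cell cycle; miR-34b/c is also a known product of ciliated epithelium. Normal libraries 1 to 4 held 65, 53, 89 and 103 counts of miR-34b-3p, and XLHZ libraries 1 to 4 held 3, 7, 1 and 1. The groups were far apart, with 12 counts of miR-34b-3p in all 4 XLHZ libraries together. In CPM the level was 6.91 ± 1.65 in normal and 0.285 ± 0.275 in XLHZ mucosa (SD, n = 4 each). It was 24.4-fold lower, with a 95% interval of 11.2 to 52.9 (log2 fold change -4.61, SE 0.50, edgeR, adjusted p = 0.00077). For miR-34c-3p the counts were 37, 33, 49 and 58 in normal libraries 1 to 4 and 7, 15, 4 and 11 in XLHZ libraries 1 to 4. The groups again did not overlap, at 3.95 ± 0.779 CPM in normal and 0.851 ± 0.447 CPM in XLHZ mucosa (SD, n = 4 each). That is 4.67-fold lower, with a 95% interval of 2.60 to 8.37 (log2 fold change -2.22, SE 0.37, edgeR, adjusted p = 0.0136). The call of miR-34c-3p ended without normal library 4 or XLHZ library 1, where its adjusted p in edgeR was at most 0.0571, and with all 12 libraries in 1 fit, where it was 0.143.

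The main arms of the miR-34 family, which share the seed GGCAGUG, did not pass. Level of miR-34c-5p was 105.4 ± 13.2 CPM in normal and 103.8 ± 11.4 CPM in XLHZ mucosa (SD, n = 4 each), a log2 fold change of -0.06 with a 95% interval of -0.36 to 0.25. The counts of miR-34b-5p were 208, 113, 338 and 1157 in normal libraries 1 to 4 and 571, 319, 227 and 241 in XLHZ libraries 1 to 4. Normal library 4 stood far above the rest of its group for miR-34b-5p. Its log2 fold change was -0.35 (SE 0.64) over all libraries and 0.63 without normal library 4. The most abundant member, miR-34a-5p, comes from a separate p53-activated gene and was at 448.2 ± 205.7 CPM in normal and 384.9 ± 66.7 CPM in XLHZ mucosa (SD, n = 4 each). Of 6 members of the miR-34 and miR-449 family tested, 2 fell and none rose, beside 0.499% lower over all miRNAs tested, a share these same 2 miRNAs make up. The family median was -0.29, beside -0.0040 over all 401 miRNAs. With 1 library left out it ran from -0.43 without XLHZ library 1 to -0.15 without XLHZ library 3. With limma-trend in place of edgeR the family median was nearer to no change, at -0.097, and 2 of the 6 members were positive.

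The last of the 6 was miR-144-5p. Its hairpin is transcribed together with miR-451, and both are abundant in red blood cells and their precursors. Normal libraries 1 to 4 held 88, 63, 98 and 69 counts of miR-144-5p, and XLHZ libraries 1 to 4 held 426, 158, 345 and 252. All XLHZ libraries were above all normal libraries, with XLHZ library 2 nearest to them. The level was 7.23 ± 1.90 CPM in normal and 27.5 ± 11.6 CPM in XLHZ mucosa (SD, n = 4 each), 3.71-fold higher with a 95% interval of 2.25 to 6.10 (log2 fold change 1.89, SE 0.32, edgeR, adjusted p = 0.0136). Without normal library 2, normal library 4 or XLHZ library 3 the call ended, at adjusted p of 0.0654, 0.0605 and 0.0655 in edgeR, and it ended with all 12 libraries in 1 fit at 0.350. The partner arm miR-144-3p had 206, 38, 685 and 58 counts in normal libraries 1 to 4 and 235, 235, 260 and 135 in XLHZ libraries 1 to 4. Normal library 3 thus held more miR-144-3p than any XLHZ library, and the log2 fold change was -0.18 (SE 0.78) with it and 1.09 without it, neither passing.

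Other red cell miRNAs were set beside miR-144-5p. For miR-451-5p, normal libraries 1 to 4 held 148, 92, 234 and 93 counts and XLHZ libraries 1 to 4 held 404, 197, 310 and 285. The groups overlapped through normal library 3, and the log2 fold change of 1.07 (SE 0.35) did not pass (edgeR, adjusted p = 0.449). Level of miR-486 was 44.1 ± 21.0 CPM in normal and 59.99 ± 28.95 CPM in XLHZ mucosa (SD, n = 4 each), which did not pass either. Over the erythroid list (miR-144, miR-451 and miR-486), 1 of 4 tested members rose, beside 0.998% higher over all miRNAs tested. Positive log2 fold changes were found in 3 of 4, beside 49.1% over all, and the median was 0.74. The summed level of the list was 44.7 to 161.9 CPM in normal and 91.9 to 203.5 CPM in XLHZ libraries. Normal library 3 had the highest normal sum, and the median was 1.27 without it and 0.47 without XLHZ library 1. The part of red blood cells left in the tissue in the miR-144-5p difference was not tested.

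The same miRNAs were then read in the exposed mucosa without XLHZ. The model and XLHZ groups are each compared with the same normal libraries here, so their values are given side by side. Model libraries 1 to 4 held 284, 166, 1375 and 264 counts of miR-20a-3p, all above the normal libraries, with a log2 fold change of 6.38 (SE 0.82, edgeR, adjusted p = 0.00773). It was the 1 miRNA of 403 tested that passed between model and normal, 0.248%. For miR-551b-3p the model libraries held 272, 1574, 283 and 7 counts, so that model library 4 fell within the normal range, and the log2 fold change was 6.18 (SE 1.37, edgeR, adjusted p = 0.166). The counts of miR-344a-3p were 116, 1361, 337 and 64 in model libraries 1 to 4, with a log2 fold change of 2.96 (SE 0.91, edgeR, adjusted p = 0.498). Those of miR-144-5p were 177, 39, 71 and 459, with a log2 fold change of 1.24 (SE 0.59, edgeR, adjusted p = 0.642). All model libraries were below all normal libraries for both miR-34 passenger arms. The counts were 12, 15, 11 and 2 for miR-34b-3p (log2 fold change -2.75, SE 0.49, edgeR, adjusted p = 0.0511) and 2, 14, 24 and 12 for miR-34c-3p (log2 fold change -1.59, SE 0.52, edgeR, adjusted p = 0.498).

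Compared directly with the model group, XLHZ mucosa showed no difference past the threshold in any of the 5 of these miRNAs that could be tested. The log2 fold changes of XLHZ against model were -1.18 for miR-20a-3p, -1.59 for miR-551b-3p, -1.40 for miR-344a-3p, -0.62 for miR-34c-3p and 0.65 for miR-144-5p. Their adjusted p in edgeR were 0.725, 0.746, 0.725, 0.822 and 0.821. Counts of miR-34b-3p were too low in both exposed groups for that test. The 95% interval for miR-20a-3p ran from -2.60 to 0.25, which spans a large fall as well as no change. Only miR-320-3p passed between XLHZ and model mucosa, 0.249% of 401 tested. It is cut from a capped hairpin that bypasses the nuclear enzyme Drosha. Counts of miR-320-3p were 917, 871, 576 and 1066 in model libraries 1 to 4, 2791, 5614, 2368 and 3967 in XLHZ libraries 1 to 4, and 1065, 1908, 1882 and 2914 in normal libraries 1 to 4. The XLHZ libraries were above all model libraries (log2 fold change 2.00, edgeR, adjusted p = 0.0365). They overlapped with the normal libraries, against which the log2 fold change was 0.97 (SE 0.33, edgeR, adjusted p = 0.449). The call against the model group ended when any 1 model library, XLHZ library 1 or XLHZ library 4 was left out, with edgeR adjusted p from 0.0641 to 0.158.

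The balance between the 2 arms of a hairpin is measured within a library and needs no scaling between libraries. It was tested on log2 of the 3p over the 5p counts, each with 0.5 added, for 171 hairpins with both arms counted. With limma, 4 hairpins passed, 2.34%, and 3 of them are those of miR-20a, miR-34b and miR-34c. The 3p arm made 0.0382% ± 0.00447 of miR-20a counts in normal and 1.46% ± 0.239 in XLHZ mucosa (SD, n = 4 each). On the log2 scale the balance of miR-20a moved by 5.17 toward the 3p arm (SE 0.15, limma, adjusted p = 2.25e-07). The 3p arm made 21.2% ± 9.86 of miR-34b counts in normal, with 8.18% in the lowest library, and 0.880% ± 0.846 in XLHZ mucosa, with 2.15% in the highest (SD, n = 4 each). That balance fell by 4.80 on the log2 scale (SE 0.63, limma, adjusted p = 0.00687). For miR-34c the 3p share was 3.62% ± 0.654 in normal and 0.854% ± 0.533 in XLHZ mucosa (SD, n = 4 each), a fall of 2.25 on the log2 scale (SE 0.43, limma, adjusted p = 0.0388). The miR-34c call ended when any library other than XLHZ library 2 was left out, with limma adjusted p from 0.0508 to 0.198. The sizes depend on the count added. With 5 counts in place of 0.5 the log2 changes were 4.50 for miR-20a, -3.41 for miR-34b and -1.76 for miR-34c, all still passing. In the model libraries the 3p share was 2.59% ± 2.02 for miR-20a, 5.42% ± 3.44 for miR-34b and 0.912% ± 0.886 for miR-34c (SD, n = 4 each).

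**Figure D2:**
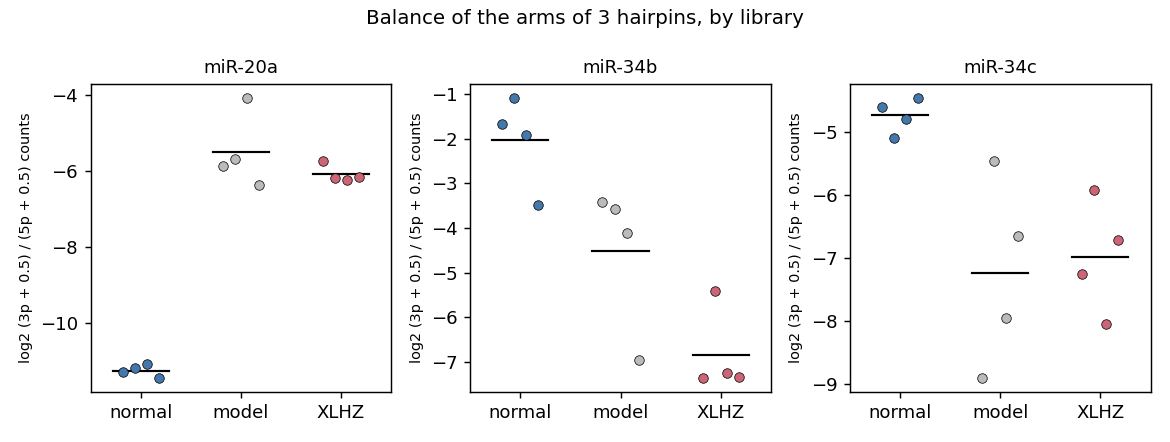
Balance of the arms of the miR-20a, miR-34b and miR-34c hairpins, as log2 of the 3p count plus 0.5 over the 5p count plus 0.5, in the 4 normal (blue), 4 model (grey) and 4 XLHZ (red) libraries. Each point is 1 library and each bar a group mean; XLHZ points lie above all normal points for miR-20a and below them for miR-34b and miR-34c.

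The fourth hairpin was miR-135a, whose passenger arm is close to the limit of detection. Normal libraries held 0 counts of miR-135a-3p each and XLHZ libraries 1 to 4 held 2, 1, 2 and 3, beside 1360, 3021, 1549 and 3042 counts of miR-135a-5p in normal and 2732, 913, 1541 and 1440 in XLHZ libraries. A count of 0 allows up to 3 counts, and no library held more, so no fold is given. With 5 counts added in place of 0.5 the miR-135a call ended (limma, adjusted p = 0.7). Arm balance of miR-144 overlapped between the groups, with 39.8% ± 22.8 of counts on the 5p arm in normal and 56.7% ± 11.6 in XLHZ mucosa (SD, n = 4 each).

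Counts were also summed over miRNAs with the same seed, since such miRNAs share most of their predicted targets and can share reads. A mature sequence was found for 586 of the 648 miRNAs, with 490 different seeds, and 298 seed families were tested. In edgeR 4 of them passed, 1.34%. Among the 57 tested families with more than 1 member among the 648 miRNAs, only AUCACUA passed, the seed of miR-34b-3p and miR-34c-3p. Its summed counts were 102, 86, 138 and 161 in normal libraries 1 to 4 and 10, 22, 5 and 12 in XLHZ libraries 1 to 4, with no overlap. The log2 fold change of the AUCACUA sum was -3.32 (SE 0.41, edgeR, adjusted p = 0.00133). Both of its members had already passed singly in the same libraries, so the sum is not a separate result. The other families that passed each held 1 miRNA already described, miR-20a-3p, miR-551b-3p or miR-144-5p. The GGCAGUG family (the miR-34 and miR-449 5p arms) summed to 603.6 ± 167.1 CPM in normal and 533.9 ± 48.2 CPM in XLHZ mucosa (SD, n = 4 each), with a log2 fold change of -0.23 and a 95% interval of -0.61 to 0.16. The AAAGUGC family, with miR-17-5p, miR-20a-5p, miR-93-5p and miR-106b-5p, had a log2 fold change of -0.04 and a 95% interval of -0.33 to 0.24.

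The remaining miRNAs of lowest p did not pass. First was miR-193a-5p, with 342, 507, 505 and 548 counts in normal and 294, 270, 255 and 383 in XLHZ libraries 1 to 4. In CPM the groups did not overlap, at 42.4 ± 5.11 in normal and 27.6 ± 2.98 in XLHZ mucosa (SD, n = 4 each), with a log2 fold change of -0.65 (SE 0.16, edgeR, adjusted p = 0.184). Under DESeq2, miR-193a-5p passed at an adjusted p of 0.00991. Next were let-7e-3p at a log2 fold change of -0.51 and miR-365-3p at -0.55, both with an edgeR adjusted p of 0.269. The arms of miR-30e, miR-30e-3p and miR-30e-5p, both had positive log2 fold changes, of 0.28 and 0.27. The intestinal miR-215 was at 6.88 ± 1.05 CPM in normal and 10.5 ± 1.92 CPM in XLHZ mucosa, and the keratinocyte miR-203b-3p at 10.7 ± 5.57 and 5.73 ± 1.28 CPM (SD, n = 4 each), both with an edgeR adjusted p of 0.470. From miR-30e-3p on, adjusted p in edgeR lay between 0.449 and 0.493 for the rest of the 26 miRNAs of smallest p, and all 20 that did not pass had log2 fold changes between -0.92 and 1.07.

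**Figure D3:**
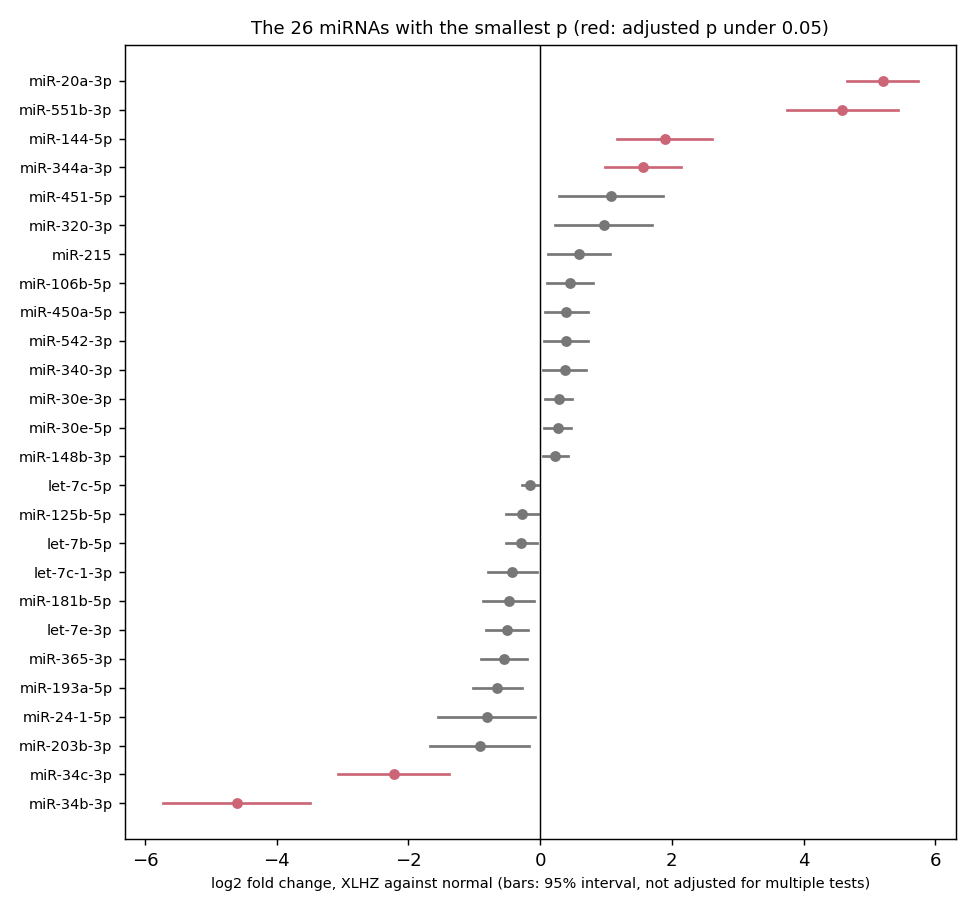
Log2 fold change of XLHZ against normal mucosa for the 26 miRNAs with the smallest p, with 95% intervals that are not adjusted for multiple tests. The 6 that passed (red) run from -4.61 for miR-34b-3p to 5.20 for miR-20a-3p, and the other 20 (grey) lie between -0.92 and 1.07.

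Relative to library size, most miRNAs of XLHZ mucosa lay near their normal level. Values scaled in this way cannot show a change in the total amount of miRNA. The median size of a log2 fold change over the 401 tested was 0.17, and in 10 it was over 1 (7 higher, 3 lower). For 307 miRNAs, 76.6%, the 95% interval lay inside a 2-fold change in either direction. Of 78 miRNAs with at least 1000 CPM in normal mucosa, 76 had such an interval and none passed, with a smallest edgeR adjusted p of 0.269. The 6 miRNAs that passed are rare. All were among the 212 tested with a mean under 50 CPM, and together they made 0.00188% to 0.00317% of counts in normal and 0.00727% to 0.0128% in XLHZ libraries. At an unadjusted p under 0.05, 21 miRNAs were higher and 14 lower, beside 20.05 expected in all if nothing differed.

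Lists of tissue and cell type miRNAs were read to see what else the mucosa held. None of these lists except the erythroid one had a member that passed. The epithelial miR-200 family summed to 76740 ± 5234 CPM in normal and 80340 ± 7349 CPM in XLHZ mucosa (SD, n = 4 each), with a median log2 fold change of 0.02 over 9 tested, and -0.03 without normal library 1 or 0.08 without normal library 4. Its most abundant member, miR-200a-3p, differed by a log2 fold change of 0.02 with a 95% interval of -0.16 to 0.20. Intestinal-type miRNAs (miR-192, miR-194 and miR-215), which rise where gastric glands turn intestinal, had a median of 0.10 over 4 tested, which was -0.01 without normal library 1 and 0.28 without normal library 3. The leading member miR-194-5p was at 6175 ± 1364 and 6888 ± 698.5 CPM (SD, n = 4 each). The gastric and endocrine list had a median of -0.04 over 12 tested, which was 0.03 when libraries were scaled by their totals, -0.09 without XLHZ library 1 and 0.04 without normal library 2. Its leading member, miR-375-3p, was at 16832 ± 2867 CPM in normal and 13045 ± 2409 CPM in XLHZ mucosa (SD, n = 4 each), with overlapping groups, a log2 fold change of -0.40 and an edgeR adjusted p of 0.493. Its log2 fold change between model and normal was -0.67.

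Muscle miRNAs were near the normal level on average and spread widely between libraries. Smooth muscle miRNAs (miR-143 and miR-145) summed to 128400 to 223300 CPM in normal and 96360 to 274900 CPM in XLHZ libraries, with a median log2 fold change of -0.06 that was -0.35 without XLHZ library 2 and 0.14 without XLHZ library 1. The most abundant miRNA of the series, miR-143-3p, took 9.39% of counts in the lowest XLHZ library and 22.98% in the highest. Its log2 fold change was -0.06 with a 95% interval of -0.75 to 0.63, and it was 0.17 without XLHZ library 1. The striated muscle list, led by miR-1b, had a median of -0.02 (0.05 with upper-quartile factors), which was -0.30 without XLHZ library 2 and 0.18 without XLHZ library 1. The nerve list, led by miR-9a-5p, had one of -0.10, which was -0.28 without XLHZ library 2 and 0.02 without normal library 2. Between model and normal the medians of the smooth muscle, striated muscle and nerve lists were 0.62, 0.90 and 0.61. The summed smooth muscle level ran from 145400 to 412600 CPM in the model libraries and moved with that comparison, and its part in the values of the model group was not tested.

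**Figure D4:**
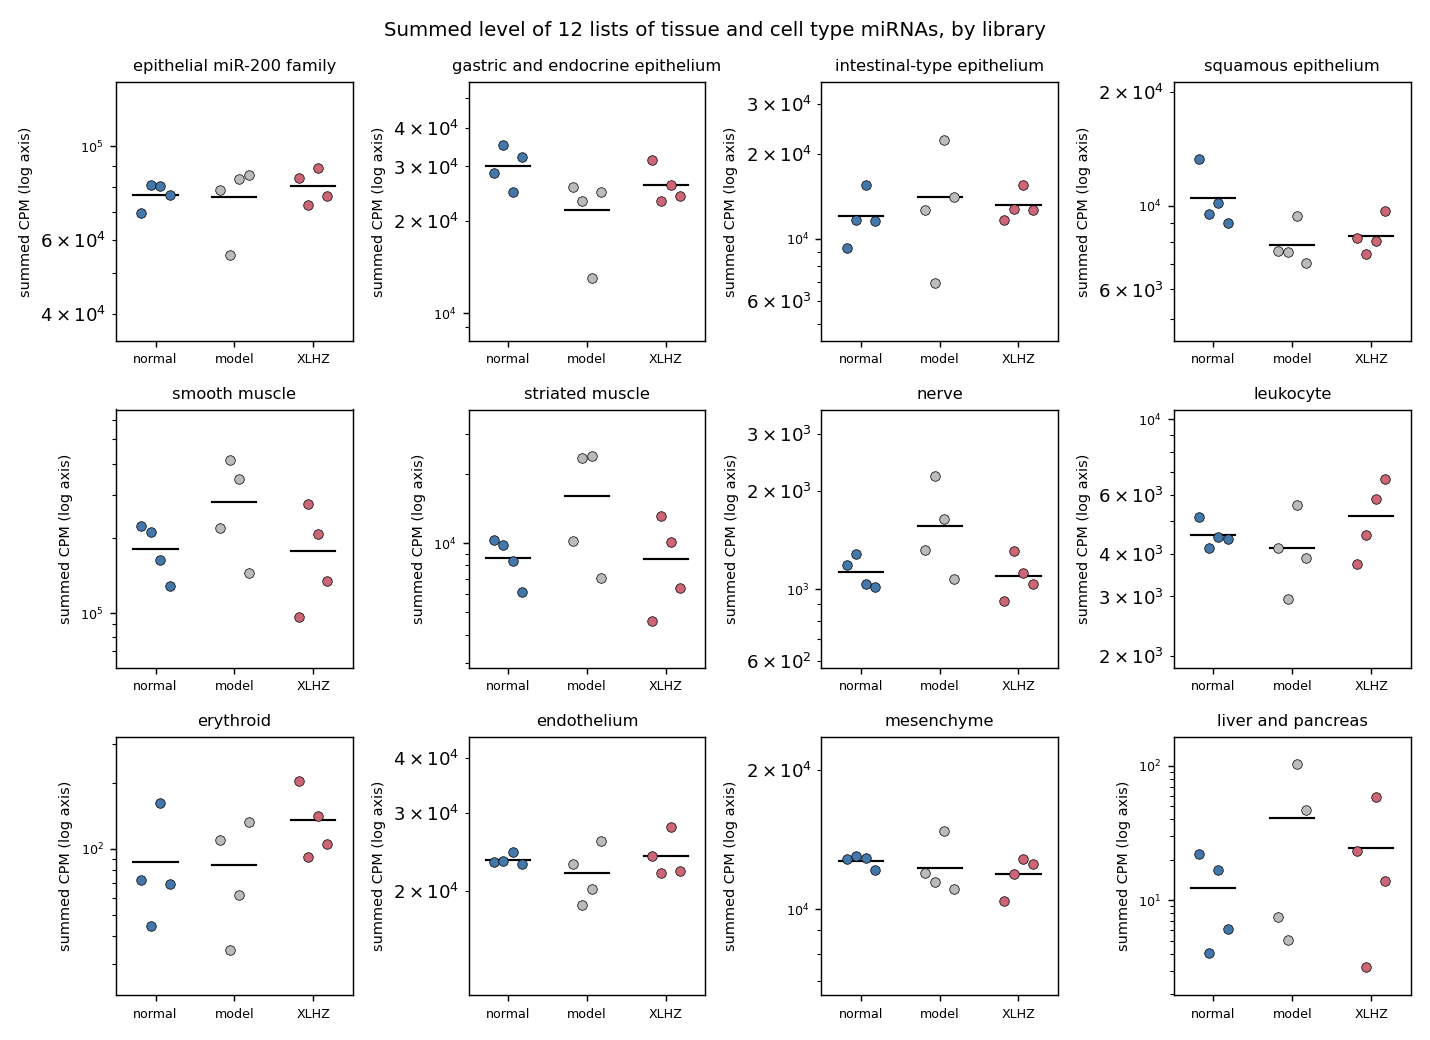
Summed level of 12 lists of tissue and cell type miRNAs, in CPM on a log axis, in the 4 normal (blue), 4 model (grey) and 4 XLHZ (red) libraries, with bars at the group means. Normal and XLHZ points overlap in all 12 lists, and the smooth muscle sum of the XLHZ libraries runs from 96360 to 274900 CPM.

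Squamous miRNAs (miR-31a, miR-203 and miR-205) mark the forestomach of the rat and other stratified epithelium. Of 5 tested, 4 had negative log2 fold changes, with a median of -0.34 that was -0.15 without normal library 1. The squamous sum was 13250 CPM in normal library 1, 9009 to 10162 CPM in the other normal libraries and 7430 to 9657 CPM in the XLHZ libraries. Leukocyte miRNAs had a median of -0.10, which was 0.06 without normal library 1, and miR-142-3p, found in all blood lineages, was at 2390 ± 411.7 and 3140 ± 1048 CPM (SD, n = 4 each). Inflammation miRNAs had a median of 0.12, which was 0.07 without normal library 2 and 0.24 without normal library 4, and miR-21-5p, which inflammation and tumours raise, was at 35097 ± 4203 CPM in normal and 38394 ± 7266 CPM in XLHZ mucosa (SD, n = 4 each). The endothelial miR-126a-3p had a log2 fold change of -0.0024 with a 95% interval of -0.16 to 0.15. The mesenchymal miR-199a-3p was at 10465 ± 253.8 and 9591 ± 955.7 CPM (SD, n = 4 each). Liver and pancreas miRNAs were rare. Counts of miR-122-5p, the main miRNA of hepatocytes, were 80, 29, 126 and 49 in normal and 223, 18, 544 and 46 in XLHZ libraries 1 to 4, high in XLHZ libraries 1 and 3 and within the normal range or below it in the others.

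Growth and tumour lists were read in the same way. In the miR-17-92 cluster and its paralogs, 1 of 14 tested members rose (miR-20a-3p), beside 0.998% higher over all miRNAs tested. Its median log2 fold change was 0.11, and 0.02 without XLHZ library 4 or 0.19 without normal library 4. The leading member of that list, miR-19b-3p, was at 2786 ± 528.1 CPM in normal and 3043 ± 317.6 CPM in XLHZ mucosa (SD, n = 4 each). None of 6 members of the related miR-106b-25 cluster passed, and miR-25-3p, its leading member, had a log2 fold change of -0.11. The let-7 family, which holds back growth genes, summed to 208200 ± 4412 CPM in normal and 195900 ± 9199 CPM in XLHZ mucosa (SD, n = 4 each) and had 14 of 20 negative log2 fold changes with a median of -0.14, which was -0.09 without normal library 1. All 20 let-7 intervals lay inside a 2-fold change, and the let-7 seed family as a sum had a log2 fold change of -0.16 with a 95% interval of -0.30 to -0.01 that did not pass (edgeR, adjusted p = 0.596). Its members let-7c-5p and let-7f-5p were at log2 fold changes of -0.15 and -0.07. The antifibrotic miR-29 family had a median of 0.12 over 6 tested, which was 0.05 without XLHZ library 2, with miR-29a-3p at -0.03. The median was 0.21 for miR-221 and miR-222, and 0.09 without XLHZ library 1. It was 0.18 for the miR-183 cluster, and 0.32 without normal library 3. For the miR-15/16 family it was -0.01 (0.07 with upper-quartile factors), -0.08 without normal library 2 and 0.08 without normal library 3. The hypoxia-induced miR-210-3p had a log2 fold change of 0.18, none of their members passing.

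The imprinted Dlk1-Dio3 cluster, a long run of miRNA genes expressed from the maternal chromosome, had 33 of 43 tested members with positive log2 fold changes, beside 49.1% positive over all miRNAs tested. With 1 library left out, the positive members ran from 22 of 43 without XLHZ library 2 to 40 of 43 without normal library 1. None of the 43 passed, and the median was 0.16, between 0.02 without XLHZ library 2 and 0.34 without normal library 1. The sums of the cluster were 632.8 to 1503 CPM in normal and 745.8 to 1314 CPM in XLHZ libraries and overlapped. Its most abundant member, miR-127-3p, was at 207.1 ± 67.7 and 206.8 ± 46.2 CPM (SD, n = 4 each).

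Depth was alike in the groups. Total counts were 10017625 to 11556058 in normal and 9094962 to 10886429 in XLHZ libraries, with 539 to 561 miRNAs detected in each. The median SD of log2(CPM + 1) over the miRNAs tested was 0.25 in normal, 0.24 in XLHZ and 0.38 in model libraries. When all 12 libraries shared 1 fit, and hence the spread of the model group, miR-20a-3p and miR-34b-3p alone passed between XLHZ and normal mucosa.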

How the data were processed

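Small RNA libraries were prepared with the QIAseq miRNA kit from RNA of integrity number above 7.0, per the labels' protocols. The sources used here do not give the genome build, the counting rule or whether reads or molecular identifiers were counted. Per the submitters' processing notes, Bowtie and DESeq were used. The authors deposited raw counts per mature miRNA in 2 tables, per the file headers; the deposited CPM columns equal count over column total within 5e-05 and served for that check only. The tables (639 and 632 miRNAs, 622 shared) were joined by name. Model counts were identical for 621 of these, all except miR-20b-3p, which was left out, and the 17 and 10 miRNAs in 1 table alone, with at most 3 counts, were taken as 0 in the other.

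XLHZ and normal libraries were fitted with edgeR 4.0.16 (glmQLFit and glmQLFTest, TMM, R 4.3.3, filterByExpr at a minimum count of 10), with Benjamini-Hochberg adjustment over all 401 miRNAs at 0.05. Arm balance used limma 3.58.1 on hairpins with at least 10 summed counts in 4 libraries and a mean of at least 1 count in the minor arm. Levels are CPM with TMM over all 12 libraries. Alternatives were DESeq2 1.42.0, limma-trend, other scalings and filters, 1 fit of all 12 libraries, a replicate block and leaving out each library. The procedure was run on simulated counts in which all miRNAs had the same dispersion and many were changed, unlike these data. That run checked the sign and size of fold changes and does not show how often calls in these data are wrong. The rule named every miRNA that passed in any of the 3 comparisons, the 26 of smallest p, other arms and same-seed miRNAs of those that passed, the 5 most abundant and the 3 most abundant of each list; of the last, the text gives the single most abundant, 53 of 93 miRNAs named by the rule. Other miRNAs were named after their values were seen. The comparison, the 25 lists and the named miRNAs were chosen with earlier results of these data known. The list of miR-551 and miR-344 was drawn from those results, and both tested members passed. Near-identical family members can share reads.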

Additional observations from a re-analysis of the deposited data

Results flagged for a closer look

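Among 106 groups of 4 libraries (53 miRNAs, normal and XLHZ), 9 held a library that stood apart from the other 3 of its group, with a gap to its nearest neighbour above the 95% critical value of Dixon's test. Chance flags about 1 in 20 such groups. None of the 6 miRNAs that passed between XLHZ and normal mucosa is among them. Normal library 1 stood apart in 5 of the 9. It was highest for let-7c-5p (48150 CPM, nearest 45130), miR-203b-3p (19.01, nearest 8.90), miR-542-3p (60.2, nearest 52.6) and miR-142-3p (3001, nearest 2247), and lowest for miR-193a-5p (34.8, nearest 44.3). Normal library 4 was lowest for miR-19b-3p, at 2004 CPM with 2974 in the nearest library. XLHZ library 2 was highest for miR-125b-5p (27960 CPM, nearest 21990) and lowest for miR-31a-5p (2943 CPM, nearest 3703). XLHZ library 3 was highest for let-7f-5p, at 62080 CPM with 53580 in the nearest library.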

How the results depend on the processing

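Between XLHZ and normal mucosa, 6 miRNAs passed under RLE, upper-quartile and total scaling, limma-trend and library sizes without the 5 most abundant miRNAs. There were 5 with at least 50 counts in 4 libraries, 7 without a count filter (adding miR-298-5p), 7 with DESeq2 (adding miR-193a-5p), 2 with all 12 libraries in 1 fit, and 4 to 7 when 1 library was left out. The labels do not say what a replicate number marks. Deviations of same-numbered normal and XLHZ libraries from their group means correlated at -0.114, 0.23, 0.126 and 0.22, over 0.1 in 3 of 4 pairs, and 2 of 4 normal libraries correlated best with their own number. The numbers were therefore not taken as pairs, though the data leave a hint of pairing. With the number as a replicate block, 5 miRNAs passed, and miR-34c-3p did not (edgeR, adjusted p = 0.139). Arm balance passed for 3 hairpins with a pseudocount of 5, 4 with a minimum of 50 counts, 2 with the replicate block (limma, adjusted p of 0.208 for miR-34c and 0.185 for miR-135a) and 2 to 4 with 1 library left out; miR-135a could not be tested without XLHZ library 1, 3 or 4. Seed families that passed numbered 3 to 5 throughout. Between model and normal, 7 miRNAs passed with DESeq2, 2 with total scaling, 4 with all 12 libraries, 3 without a filter, and 1 to 4 with 1 library left out, the most without model library 4. Between XLHZ and model, 0 to 1 passed in edgeR with 1 library left out, beside 6 to 59 at an unadjusted p under 0.05. Causes of these shifts were not tested, except that fewer libraries enter some fits.

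Of 952 alternative log2 fold changes of 53 miRNAs, 896 kept their sign, of which 12 lost a call and 2 gained one, and 56 turned sign, all in miRNAs that did not pass. The median of all miRNAs shifted by at most 0.0817 with scaling. Upper-quartile factors gave 0.0408 for miR-20a-5p, 0.0293 for miR-34c-5p, 0.0824 for miR-126a-3p, 0.0116 for let-7f-5p, 0.0511 for miR-29a-3p, 0.0604 for miR-16-5p and 0.0682 for miR-127-3p. Library totals gave 0.0259 for miR-20a-5p, 0.00379 for miR-34c-5p, 0.0569 for miR-126a-3p, 0.0344 for miR-29a-3p, 0.0361 for miR-16-5p and 0.0431 for miR-127-3p. With all 12 libraries in 1 fit, values were 0.0320 for miR-126a-3p, 0.00095 for miR-29a-3p and 0.0129 for miR-16-5p. For miR-126a-3p, RLE and DESeq2 gave 0.00382, the stricter filter 0.00296 and library sizes without the 5 most abundant 0.00782. Limma-trend and the replicate block gave 0.647 and 0.596 for miR-144-3p, and 0.0352 and 0.0690 for miR-34b-5p. With 1 library left out, ranges were -0.541 to 1.09 for miR-144-3p, -0.128 to 0.0642 for miR-20a-5p, -0.730 to 0.628 for miR-34b-5p, -0.113 to 0.0706 for miR-34c-5p, -0.0261 to 0.0651 for miR-200a-3p, -0.357 to 0.170 for miR-143-3p and -0.350 to 0.172 for miR-1b. They were -0.0341 to 0.0578 for miR-126a-3p, -0.426 to 0.0558 for miR-34a-5p, -0.00014 to 0.199 for miR-19b-3p, -0.0567 to 0.0228 for miR-29a-3p, -0.0427 to 0.0493 for miR-16-5p and -0.153 to 0.199 for miR-127-3p.

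Low counts limit the precision of miR-34b-3p and miR-34c-3p, with 12 and 37 counts over the XLHZ libraries, and of miR-20a-3p and miR-551b-3p, with 28 and 34 over the normal libraries, and 247 miRNAs had too few counts to test.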
